A study of Mus musculus with 2 samples.

Results

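The 6 genes described here are the mouse miRNA genes Mir744, Mir191, Mir425, Mir22, Mir151 and Mir330, out of 2202 miRNA genes counted. Mir744, Mir191, Mir22, Mir151 and Mir330 were chosen by mean level, as widely expressed genes among the 20 with the highest mean CPM, and Mir425 was added as the gene that lies next to Mir191. The selection was by name and does not take in every such gene: Mir221, also widely expressed and at rank 20, is not among the 6. For all but Mir425, a high level is therefore what selected the gene. The levels of the 6 genes are given as a description, with no test. Small RNAs were sequenced from hippocampal total RNA. The mice were females of the F1 hybrid strain B6CASTF1/J from The Jackson Laboratory, at an age of 2 months. The tissue is labelled a layer of hippocampus, without the layer's name, and no treatment or altered gene is given. The 1 group holds 2 libraries, biological replicates 2 and 1, which have separate tissue records and share 1 donor record. Whether 1 animal or several gave the tissue is not stated, and part of the spread between the libraries may be technical. In bulk tissue, fewer cells of a type and less RNA per cell cannot be told apart. Levels are CPM, counts per 1000000 sense-strand counts on miRNA genes.

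A miRNA gene is transcribed into a longer primary RNA from which the enzyme Drosha cuts a hairpin. Dicer then cuts the hairpin into a short duplex, and the strand that is loaded onto an Argonaute protein pairs with messenger RNAs mainly through its seed, bases 2 to 8 from its 5′ end, and lowers their output. Many hairpins sit inside introns or exons of longer genes and are made from the same primary transcript as the host. miR-191 is often used as a reference small RNA in expression assays because many tissues contain it, miR-22 is known from work on heart muscle growth in mice, miR-744 is known in human cells as a regulator of TGFB1, and miR-151 is known in human liver tumour cells, where it acts with the product of its host gene, focal adhesion kinase.

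RefSeq mature sequences (build GRCm38.p6, the assembly also called mm10) were found for 5 of the 6 genes, all but Mir151, 2 arms each. The mature sequences are shown because the seed, in capitals, decides which messenger RNAs each product can pair with.
mmu-miR-744-5p: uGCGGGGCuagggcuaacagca
mmu-miR-744-3p: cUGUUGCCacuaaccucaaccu
mmu-miR-191-5p: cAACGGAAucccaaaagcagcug
mmu-miR-191-3p: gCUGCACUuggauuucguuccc
mmu-miR-425-5p: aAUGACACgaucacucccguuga
mmu-miR-425-3p: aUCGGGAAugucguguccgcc
mmu-miR-22-5p: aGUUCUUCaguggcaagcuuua
mmu-miR-22-3p: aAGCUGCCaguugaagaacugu
mmu-miR-330-5p: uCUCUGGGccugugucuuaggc
mmu-miR-330-3p: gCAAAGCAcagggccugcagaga

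The 10 mature sequences carried 10 distinct seeds, so no pair among these 5 genes shared a seed. Their lengths were 21 to 23 bases and their G and C content 40.9% in miR-22-5p to 63.6% in miR-744-5p. Of the 10 seeds, 3 occurred in 1 other mature sequence each, among 1738 in the RefSeq table. The seed of miR-330-5p is shared with miR-326-3p, that of miR-425-5p with miR-489-3p, and that of miR-330-3p with miR-6240. These partners are shown to let the sequences outside the shared seed be compared.
mmu-miR-326-3p: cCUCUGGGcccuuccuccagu
mmu-miR-489-3p: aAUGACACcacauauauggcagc
mmu-miR-6240: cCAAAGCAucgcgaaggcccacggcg
Mir326 had 470.96 CPM in replicate 2 and 382.7 CPM in replicate 1, a mean of 426.8 ± 62.4 CPM (SD, n = 2). The gene of its seed partner, Mir330, averaged 10467 CPM in the same libraries. Mir489 had no count in either library, and Mir6240 had 31 counts in replicate 2 and 12 in replicate 1. The counts are per gene, so they do not say which arm of a hairpin the reads came from, and the comparison of seed partners is one of genes.

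None of the 10 mature sequences occurred in another hairpin among the 1005 of the RefSeq table. The longest stretch that a hairpin of these genes shared with another hairpin was 15 bases for Mir744, 12 for Mir425 and for Mir330, 11 for Mir22 and 10 for Mir191. In the deposited tables, reads that map to several places are given to no gene. Their share of the reads was 48.4% in replicate 2, against 45.9% in replicate 1. The hairpins of Mir191 and Mir425 are shown because both lie in 1 short transcript and were counted at very different levels, with the mature arms in capitals.
Mir191 hairpin: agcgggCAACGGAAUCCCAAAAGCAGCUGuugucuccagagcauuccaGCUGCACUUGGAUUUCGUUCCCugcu
Mir425 hairpin: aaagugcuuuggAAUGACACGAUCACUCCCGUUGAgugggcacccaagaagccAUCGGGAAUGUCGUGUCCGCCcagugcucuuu
The Mir191 hairpin is 74 bases long and the Mir425 hairpin 85 bases. Folded with RNAfold, the minimum free energy was -35.0 kcal/mol for Mir191, or -0.473 per base, and -31.7 kcal/mol for Mir425, or -0.373 per base. The hairpins of Mir744, Mir22 and Mir330 lay at -0.448, -0.441 and -0.434 per base. The median over the 354 tested genes with a hairpin among those compared was -0.437 per base. Mir191 had the most stable predicted fold per base among these 5 genes and Mir425 the least: 29.7% of the 354 hairpins had a lower value than Mir191, against 80.2% for Mir425.

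All 6 hairpins lay within an annotated transcript on the same strand in GENCODE M21, where 53.5% of the 2202 miRNA genes, 73.1% of the 420 genes tested below and 17 of the 20 most abundant genes did. Mir744 (ENSMUSG00000076460.1, chr11:65734733-65734832, minus strand) lay in an intron of Map2k4 in all 5 transcripts that span it. Map2k4 encodes a kinase that activates the JNK and p38 pathways. In the Map2k4 transcript with the most exons the hairpin sat in intron 3, 359 bases after the exon before it and 15129 bases ahead of the next. Mir151 (ENSMUSG00000065612.1, chr15:73254815-73254882, minus strand) lay in an intron of Ptk2, which encodes focal adhesion kinase, in all 5 transcripts that span it. It sat 168398 bases from the annotated start of Ptk2, the greatest distance among these genes, and in an intron of 14556 bases in 4 of the 5 transcripts. The antisense RNA gene 1700085D07Rik runs across Mir151 on the other strand.

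Mir330 (ENSMUSG00000065543.1, chr7:19181465-19181562, plus strand) lay near the start of Eml2, which encodes a microtubule-associated protein. It was intronic in 6 transcripts of Eml2, 146 bases ahead of the next exon in each, and overlapped exon 1 in the transcript Eml2-205. In Eml2-203 the intron was 485 bases long. Mir22 (ENSMUSG00000065529.1, chr11:75463716-75463810, plus strand) was exonic in all transcripts that contain it, in exon 2 of both transcripts of the non-coding host gene Mir22hg and in exon 2 of the transcript Tlcd2-203. Exon 2 of Mir22hg-202 and of Tlcd2-203 is 165 bases long, so the hairpin of 95 bases takes up most of it.

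Mir191 (ENSMUSG00000105497.1, chr9:108568319-108568392) and Mir425 (ENSMUSG00000065579.1, chr9:108568777-108568861) lay on the plus strand with 384 bases between them, inside the lincRNA gene 4833445I07Rik of 1642 bases. Mir191 was exonic in the single-exon transcript of that gene and intronic in its spliced transcript, in an intron of 303 bases. Mir425 was exonic in the single-exon transcript. GENCODE M21 starts the protein-coding gene Dalrd3, whose product takes part in the modification of transfer RNAs, 1024 bases after Mir425. RefSeq on the same assembly places the start of Dalrd3 at base 108567484 of chromosome 9, which puts both hairpins inside that gene. No other of the 6 genes had a miRNA gene within 10 kb. On the other strand, the miRNA gene Gm24083 (chr9:108568295-108568414) covers all 74 bases of Mir191.

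**Figure D1:**
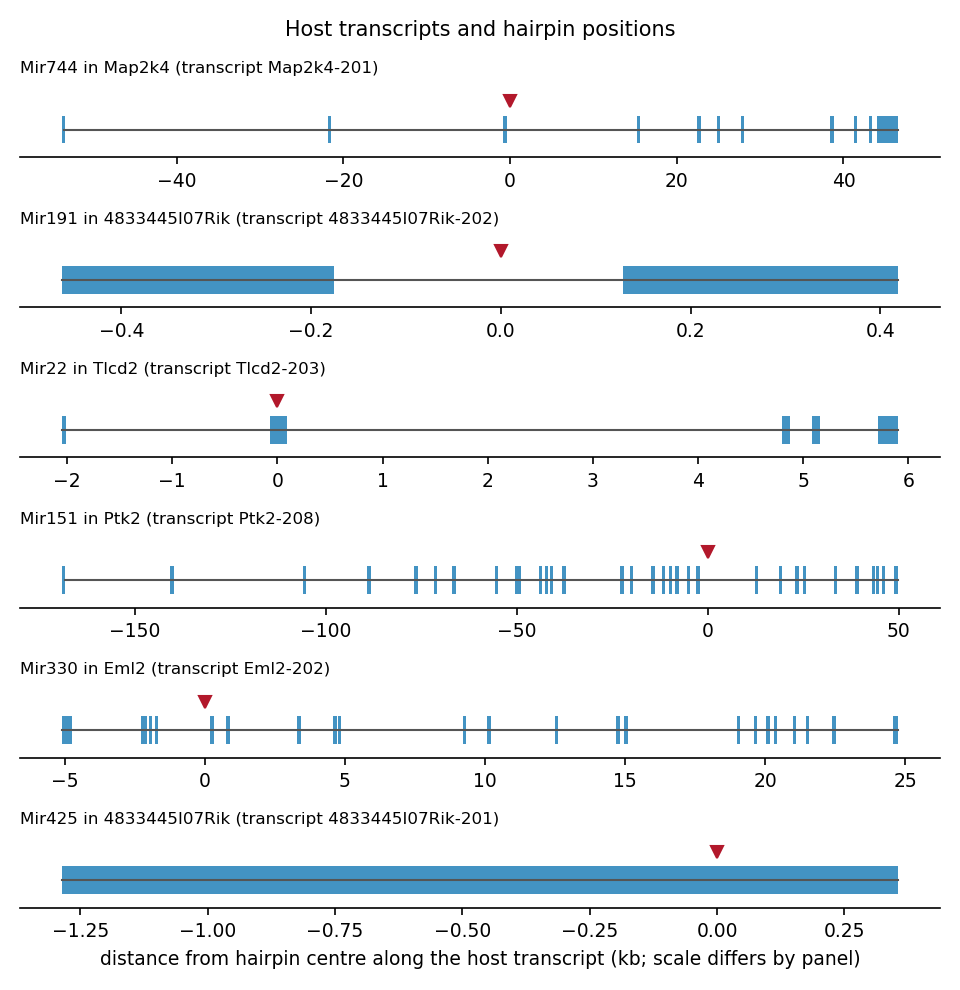
Host transcript with the most exons for each gene, drawn to scale within a panel, with distance from the hairpin centre in kb on the horizontal axis, read in the direction of transcription, exons as blue boxes and the hairpin centre as a red triangle. Very short exons are widened to stay visible; Mir744, Mir151 and Mir330 lie in introns of protein-coding genes, Mir22 and Mir425 in exons, and Mir191 in the intron of 303 bases of a spliced lincRNA.

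Replicate 2 held 5979247 sense counts on miRNA genes and replicate 1 held 4517648. A count of 0 therefore allows up to 0.502 CPM in replicate 2, and up to 0.664 CPM in the shallower replicate 1. Amplified reads are not independent molecules, so such limits and all intervals below describe counting error alone. The hippocampal label was set against marker miRNAs of the cell types present. The 12 neuronal markers all had counts and summed to 52367 CPM in replicate 2 and 47523 CPM in replicate 1. Only 8 of the 12 had at least 10 counts in both libraries. Of those 8, 3 were higher and 4 lower in replicate 2 in the test described below, and 1 did not pass. In that test 27.1% of all 420 genes were higher and 29.8% lower. The median log2 ratio of replicate 2 over replicate 1 of the 8 neuronal markers was -0.02. The 3 oligodendrocyte markers summed to 6984 CPM in replicate 2 and 6533 CPM in replicate 1. The 3 endothelial and mural markers summed to 22325 and 19223 CPM. The 3 red cell markers summed to 142.5 CPM in replicate 2 and 95.4 CPM in replicate 1. The 8 markers of epithelium and of brain regions outside hippocampus summed to 206.4 CPM in replicate 2 and 632.2 CPM in replicate 1, a 3.06-fold higher sum in replicate 1.

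Together the 6 genes held 7.86% of the counts of replicate 2 and 8.49% of those of replicate 1, a mean of 8.17% ± 0.443 (SD, n = 2). Mir744 was the most abundant of them. It had 28225 CPM in replicate 2 and 39787 CPM in replicate 1, or 34006 ± 8176 CPM (SD, n = 2), and ranked 6 of 2202. By share of counts it made up 2.82% in replicate 2, with a 95% Wilson interval of 2.809 to 2.836%, against 3.98% in replicate 1, with one of 3.961 to 3.997%. Both of its values lay above every value of the other 5 genes.

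Mir191 had 13881 CPM in replicate 2 and 11789 CPM in replicate 1 (mean 12835 ± 1479, SD, n = 2, rank 14). Mir22 had 14102 CPM in replicate 2 and 10626 CPM in replicate 1 (mean 12364 ± 2458, rank 16). These ranges overlapped, and the order of Mir191 and Mir22 turned over between the libraries, with 0.984 times as many Mir191 as Mir22 counts in replicate 2 and 1.11 times as many in replicate 1. Mir151 had 12511 CPM in replicate 2 and 9865 CPM in replicate 1 (mean 11188 ± 1871, rank 18). Mir330 had 9048 CPM in replicate 2 and 11885 CPM in replicate 1 (mean 10467 ± 2006, rank 19). Mir330 was the lowest of these 4 genes in replicate 2 and the highest of them in replicate 1, and the ranges of all 4 over the libraries overlapped. Within each library, Mir191 and Mir22 both lay above Mir151, with 1.13 times as many Mir22 as Mir151 counts in replicate 2 and 1.08 times as many in replicate 1. What turned over was the order of Mir191 and Mir22 and the place of Mir330.

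Mir425 stood apart from the rest. Its level was 833.4 CPM in replicate 2, against 915.96 CPM in replicate 1, or 874.7 ± 58.4 CPM (SD, n = 2), and ranked 101. The next gene up, Mir330, had 10.9 times as many counts in replicate 2 and 13.0 times as many in replicate 1. Mir744 exceeded Mir425 by 38.9 times on the means. These levels are per gene and not per base. Divided by the length of the hairpin, the means were 34006 CPM per 100 bases for Mir744, 17344 for Mir191, 16453 for Mir151, 13015 for Mir22, 10680 for Mir330 and 1029 for Mir425, which exchanges Mir151 and Mir22. The mature sequences shown are 21 to 23 bases long whatever the hairpin length, so this division is no correction of the levels. At the limit of the selection, Mir221 ranked 20 with 10363 CPM and Mir328 ranked 21 with 9495 CPM. By rank within a single library, Mir330 fell to 21 in replicate 2 and Mir151 to 22 in replicate 1, outside the first 20.

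**Figure D2:**
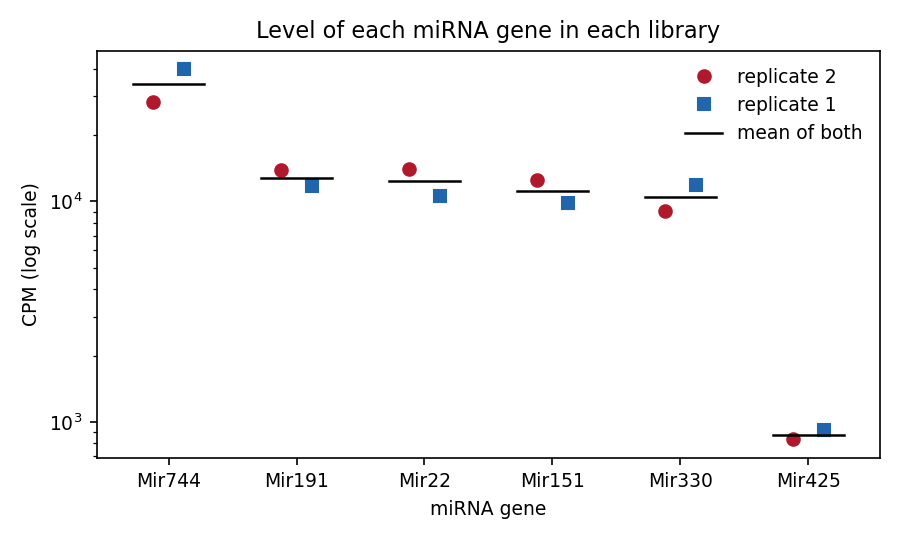
CPM on a log scale (vertical axis) for each of the 6 miRNA genes (horizontal axis), with circles for replicate 2, squares for replicate 1 and bars for the mean of both. Mir744 lies above all others at 28225 and 39787 CPM, Mir191, Mir22, Mir151 and Mir330 overlap between 9048 and 14102 CPM, and Mir425 lies below at 833.4 and 915.96 CPM.

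For each gene, the other gene with the nearest levels was taken by the distance between log2(CPM + 0.5) values over both libraries. It was Mir127 for Mir744, at a distance of 0.20, with 25349 CPM in replicate 2 and 36573 CPM in replicate 1. Mir127 belongs to an imprinted cluster. Mir126a, a miRNA of endothelial cells, was nearest to both Mir191 and Mir22, at distances of 0.07 and 0.10. Mir101b was nearest to Mir425 at 0.08, Mir22 to Mir151 at 0.20 and Mir221 to Mir330 at 0.25. With 2 libraries, a small distance says only that levels were alike in both.

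Mir191 and Mir425 share a strand and a short transcript, so their counts were set against each other within each library, where depth cancels. Mir191 had 82996 counts in replicate 2 and 53258 in replicate 1, while Mir425 had 4983 counts in replicate 2 and 4138 in replicate 1. There were 16.7 Mir191 counts per Mir425 count in replicate 2 (95% exact binomial interval 16.19 to 17.14) and 12.9 in replicate 1 (12.47 to 13.29). Mir191 was the more abundant gene in both, by a mean of 14.8 ± 2.68 times (SD, n = 2). The ratio was 1.29-fold higher in replicate 2, a difference of 0.37 on the log2 scale (Fisher's exact test on the counts of both genes, two-sided, p = 4.1e-32). Mir191 was higher and Mir425 lower in replicate 2 as a share of all miRNA counts.

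Among all miRNA genes, 58 pairs of neighbours lay on 1 strand within 1 kb with at least 10 counts of each gene in both libraries. Members of a pair differed by a median of 2.56 on the log2 scale, or 5.91-fold, against 3.87 for Mir191 and Mir425, and 22 pairs differed more. The ratio within a pair shifted between replicate 2 and replicate 1 by a median of 0.53 on the log2 scale. The shift of 0.37 for Mir191 and Mir425 was exceeded by 36 of the 58 pairs. Pairs of 1 cluster are not independent of each other, and these values are a description. Reads that map to several places are given to no gene. Some pairs hold a gene with another numbered copy elsewhere, whose counts can lack such reads. How far this shapes the ratios of those pairs was not tested.

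**Figure D3:**
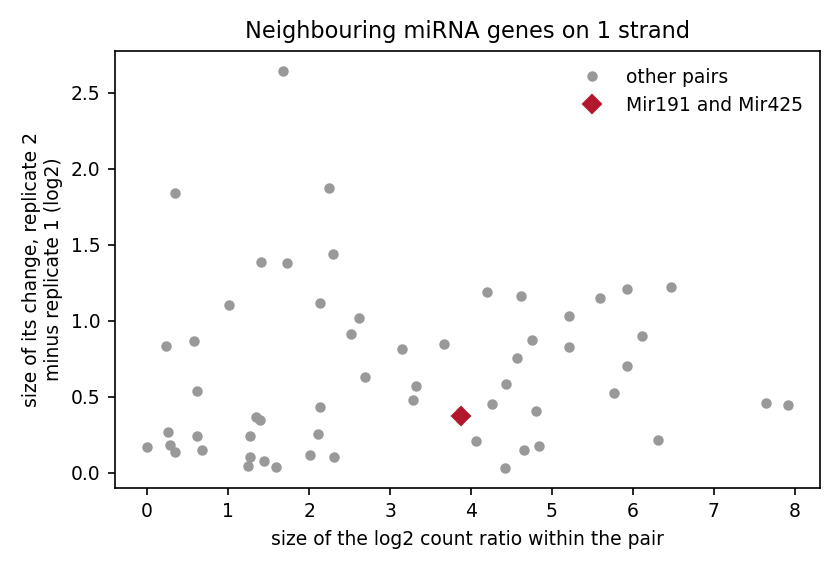
Each point is 1 of 58 pairs of neighbouring miRNA genes on 1 strand, with the size of the log2 ratio of their counts (mean of both libraries, horizontal axis) against the size of its shift between replicate 2 and replicate 1 (log2, vertical axis). Mir191 and Mir425 (red diamond) lie at 3.87 and 0.37, above the median of 2.56 for the count ratio and below the median of 0.53 for the shift.

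The libraries were then compared gene by gene to see whether the replicates differed by more than counting error. Genes with at least 10 sense counts in both libraries entered Fisher's exact test, two-sided, against all other miRNA counts, with Benjamini-Hochberg adjustment at 0.05 over all 420 genes tested. This compares the reads of 2 libraries and no condition. All 6 genes were tested and all 6 passed, 3 higher and 3 lower in replicate 2, where 56.9% of the 420 genes passed, 27.1% as higher and 29.8% as lower. Over all genes, 114 were higher and 125 lower, and this balance turned with the scaling, to 135 higher and 107 lower with TMM and 135 higher and 103 lower with DESeq2. At these depths most abundant genes pass, and 94.6% of the 93 genes at 1000 CPM or more did, 44.1% as higher and 50.5% as lower.

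Mir744 was lower in replicate 2, with a log2 ratio of -0.50 (95% exact binomial interval -0.50 to -0.49). That is 1.41-fold higher in replicate 1, and the log10 of its adjusted p by Fisher's exact test was -2302. Mir330 was lower in replicate 2 at -0.39 (-0.41 to -0.38), 1.31-fold higher in replicate 1, with a log10 adjusted p of -439. Mir425 was lower in replicate 2 at -0.14 (-0.20 to -0.08), with an adjusted p of 1.8e-05 by Fisher's exact test. With TMM or DESeq2 scaling it stood at -0.07, with adjusted p of 0.0311 and 0.0463 by an exact binomial test. The remaining genes moved the other way. Mir22 was 1.33-fold higher in replicate 2, at a log2 ratio of 0.41 (0.39 to 0.42) and a log10 adjusted p of -552. Mir151 was 1.27-fold higher in replicate 2 at 0.34 (0.33 to 0.36), with a log10 adjusted p of -353. Mir191 was 1.18-fold higher at 0.24 (0.22 to 0.25), with an adjusted p of 1e-193 by Fisher's exact test.

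The median size of the log2 ratio was 0.37 over the 6 genes, 0.30 over all 420 tested and 0.26 over the 93 genes at 1000 CPM or more. Among the 20 most abundant genes, only Mir132, named after its values were seen, and Mir127 had larger ratios in size than Mir744, at 0.54 and -0.53. Of the 420 genes, 135 had a larger log2 ratio in size than Mir744, 171 than Mir22 and 312 than Mir425. The median log2 ratio with its sign was 0.05 over the 6 genes and -0.07 over all 420. Beside these ratios, the red cell markers were 1.49-fold higher in replicate 2 in sum, with 2 of 3 higher and none lower. The 4 markers of choroid plexus and ependyma summed to 2022 CPM in replicate 2 and 1501 CPM in replicate 1, 1.35-fold higher in replicate 2. Of these 4, 2 were higher, none lower and 2 did not pass. The 5 markers of microglia and leukocytes summed to 2063 CPM in replicate 2 and 1762 CPM in replicate 1, 1.17-fold higher in replicate 2. Of these 5, 2 were higher, none lower and 3 did not pass. The median log2 ratio of the 5 was -0.15, so they did not rise as a set. The markers of epithelium and regions outside hippocampus were lower in replicate 2 for 7 of 7 tested genes. Some of these 7 are neighbours within 1 kb on 1 strand, so they are not 7 independent loci. Beside these marker counts, 27.1% of all 420 tested genes were higher and 29.8% lower. The part of the marker sets in the ratios of the 6 genes was not tested.

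**Figure D4:**
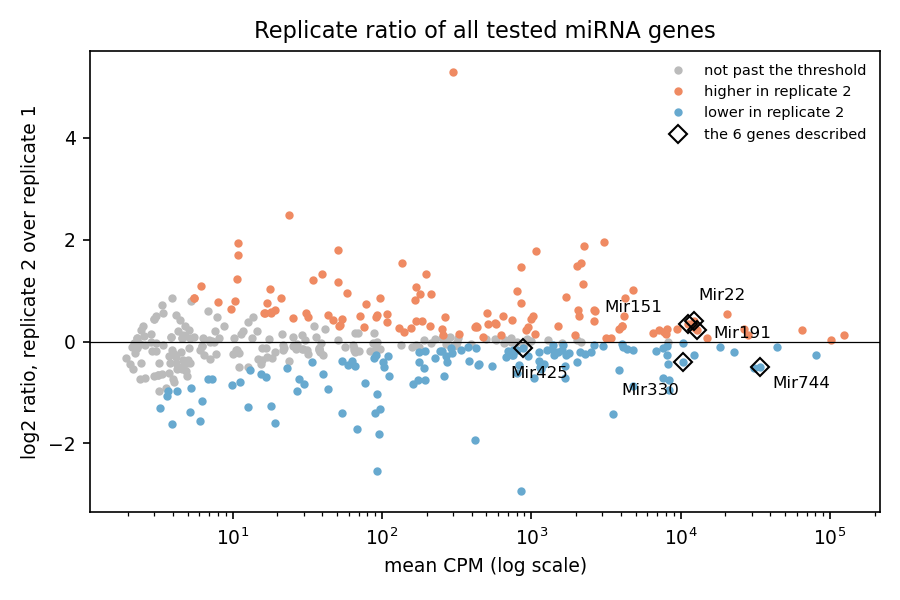
Log2 ratio of replicate 2 over replicate 1 (vertical axis) against mean CPM on a log scale (horizontal axis) for the 420 tested miRNA genes, coloured by the outcome of Fisher's exact test, with open diamonds for the 6 genes described. The 6 diamonds lie between -0.50 for Mir744 and 0.41 for Mir22, 3 on each side of 0.

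As a setting for these values, 20 other miRNA genes known from many tissues were counted. All 20 were tested, 4 were higher and 10 lower in replicate 2, and 6 did not pass. Over all 420 tested genes, 27.1% were higher and 29.8% lower. Of the 93 genes at 1000 CPM or more, 44.1% were higher and 50.5% lower. Their median log2 ratio was -0.08, and the median size 0.18. The most abundant were Mir221, Mir328, Mir652 and Mir324, at 10363 ± 175.2, 9495 ± 1185, 8200 ± 1723 and 7586 ± 449.9 CPM (SD, n = 2). Mir340 and Mir30d had the largest log2 ratios among those that passed, 1.53 and 1.01, and Mir185 and Mir30e the most negative, -2.94 and -0.56.

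The strand of the reads gave a last measurement. All counts of the 6 genes fell on their own strand, and the antisense count was 0 for each gene in both libraries. A count of 0 allows antisense reads of up to 0.00167% of the sense reads for Mir744 in replicate 1 and up to 0.0725% for Mir425 in replicate 1, the ends of the range over genes and libraries. In the column counted without regard to strand, 5 of the genes kept the same counts, while Mir191 had 0 counts in both libraries, against 82996 and 53258 sense counts in replicates 2 and 1. Gm24083, which overlaps it on the other strand, likewise had 0 sense counts in both. The sense reads of Mir191 equal 17.4% of the reads called ambiguous in that column in replicate 2 and 15.9% in replicate 1. Of the 20 most abundant miRNA genes, 3 lost over 90% of their counts there, Mir191 among them. Over all 420 tested genes, 27 did.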

How the data were processed

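MicroRNA sequencing tables of 2 libraries were used, replicates 2 and 1 of 1 group. The authors deposited whole-number read counts per miRNA gene, not normalized and not pooled, on mm10 and GENCODE M21, per the deposited notes. Not given in the sources used here are the aligner, the trimming and how reads of the hybrid strain were mapped to this assembly. Each table has count columns without regard to strand and for each strand, with no names. The strand column with the larger total was used as sense. Totals leave out every read that has no gene. Those that map to several places made up 48.4% of reads in replicate 2 and 45.9% in replicate 1, and unmapped reads 11.2% and 11.8%.

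CPM, ratios on log2(CPM + 0.5), Wilson and exact binomial intervals and Fisher's exact tests were computed with SciPy 1.17.1. The Fisher test was checked on simulated counts with counting error and set fold changes, without further spread between libraries. That check cannot show how the test behaves with such spread. edgeR's common dispersion over the 420 tested genes was 0.097, a coefficient of variation of 0.31 between the 2 libraries. Scaling alternatives used TMM factors of edgeR 4.0.16 and size factors of DESeq2 1.42.0, both from the 420 tested genes, with an exact binomial test. Hairpins were folded with RNAfold of ViennaRNA 2.7.2. With 1 group, edgeR's quasi-likelihood test has no contrast. Symbols, coordinates and hosts came from GENCODE M21, which held all 2202 identifiers. Sequences came from RefSeq (GRCm38.p6), without those of chromosome 18.

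Genes named are the 6 members, seed partners, miRNA genes within 10 kb, each member's nearest gene by level, ranks 20 and 21, the most abundant gene, and the 4 most abundant and the extremes of a list of 20 other genes. The members and lists were chosen with earlier results of these data known.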

Additional observations from a re-analysis of the deposited data

Results flagged for a closer look

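The antisense-strand counts of genes other than the 6 described, which entered no comparison, lay far above the 3 that a count of 0 allows at Gm24083, the miRNA gene on the other strand of Mir191: 82996 in replicate 2 and 53258 in replicate 1. These numbers equal the sense counts of Mir191 in the same libraries, and Gm24083 had 0 sense counts in both. Gm24083 covers all 74 bases of Mir191, so a sense read of Mir191 is by definition antisense to Gm24083. The equal numbers are therefore the same reads and no separate observation.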

How the results depend on the processing

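All 6 replicate ratios kept their direction and stayed past the threshold under every alternative that gave a value. Ranges of the log2 ratio were -0.50 to -0.43 for Mir744, -0.39 to -0.32 for Mir330, -0.15 to -0.07 for Mir425, 0.23 to 0.30 for Mir191, 0.34 to 0.41 for Mir151 and 0.41 to 0.48 for Mir22. Mir425 came nearest to the threshold, at an adjusted p of 0.0463 (exact binomial test) with DESeq2 size factors and 0.0311 with TMM, over a range of 1.8e-05 to 0.0463. The number of genes past the threshold, 239 or 56.9% of those tested, ranged over 200 to 249, or 32.2% with no filter to 74.1% at a minimum of 100 counts. In the column without regard to strand Mir191 stood at 0 CPM and the ratio of Mir191 to Mir425 at 0, so no replicate ratio could be had there; Gm24083 overlaps it, and the cause was not tested. There Mir425 stood at 947.4 CPM. Without the most abundant gene, Mirlet7g, in the total, Mir191 stood at 14662 and Mir425 at 998.4 CPM. Per 1000000 of all reads, the levels were 12886.5 for Mir744, 4832 for Mir191, 4647 for Mir22, 4208 for Mir151, 3963 for Mir330 and 330.4 for Mir425. Leaving out replicate 1 or 2 gave the levels and ratios of a single library and no test. No paired analysis was possible because there is 1 group. With a pair of libraries, the order of Mir191 and Mir22 and the place of Mir330 were not resolved.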
